A study of Catharanthus roseus with 15 samples.

Results

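RAP2.12 (CRO_001062), ERF13 (CRO_008428) and ERF15 (CRO_019273) are ethylene response factor genes of the medicinal plant Catharanthus roseus, the source of vinblastine and other monoterpenoid indole alkaloids. These 3 of the 33829 genes in the deposited count table were described across all 15 libraries, and each of the 3 was among the 18008 genes with enough counts to be fitted. The study had placed them in its catharanthine network from these same libraries, so their levels and fold changes are given as a description, with no test. Leaves of cultivar Vitae Rose Red seedlings were sampled at 0 h as the control, or after plants were sprayed with 100 µM ethephon (ETH, which releases ethylene in the tissue) or 100 µM methyl jasmonate (MJ) and left for 3 h or 24 h. Both ETH groups, both MJ groups and the 0 h group had 3 libraries each, so there were 5 groups. The sample labels give an age of 2 weeks, whereas the methods of the study give an older age. No water-sprayed library of 3 h or 24 h was analysed here, so time after spraying, time of day and handling cannot be told apart from the hormone in a comparison with 0 h. The study calls the replicates biological, but the sources do not say whether the libraries of a group came from separate plants or pools. What part of the spread among them is technical is therefore not known.

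AP2/ERF proteins are a large family of plant transcription factors that share the AP2 DNA-binding domain, and many ERF members bind the GCC box in promoters of ethylene- and pathogen-responsive genes. In Arabidopsis, ethylene switches off its receptors and the kinase CTR1, EIN2 then carries the signal to the nucleus, and the transcription factors EIN3 and EIL1 become stable and activate ERF genes. In Catharanthus roseus, jasmonate-responsive AP2/ERF proteins of the ORCA group are known activators of alkaloid pathway genes. RAP2.12 of Arabidopsis belongs to the ERFs whose protein is destroyed when oxygen is present and which switch on genes of low-oxygen metabolism, so its transcript level does not give its protein level. The gene called ERF13 has Arabidopsis ERF1, a GCC-box activator, as its listed match, and so does the gene called ERF15, so both names follow the tables of the study and not a proven one-to-one counterpart. Gene positions and sequences of the 3 genes are not given here, since none of the 3 IDs matched the gene table at hand.

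Total counts ranged from 23710688 to 31168281 per library, and levels are scaled counts (CPM, the count as a share of the library total) after TMM scaling, a correction for differences in RNA composition. Counts of RAP2.12 were 4276 to 26858 and counts of ERF13 were 1463 to 11798 per library. ERF15 had far fewer, with 13 to 1222 counts per library, so its low values rest on few reads. Levels are compared only within a gene, because gene lengths were not used. The leaf markers PSAF, of photosystem I, and rbcL, of Rubisco, were detected in every library. In none of them did psbB, of photosystem II, have a count. Group means of rbcL were only 12.3 to 18.0 CPM, so the view of leaf content rests mainly on PSAF. Every library of both 3 h groups lay below the controls in PSAF, at 1805 to 2546 CPM at ETH 3 h and 1144 to 2230 CPM at MJ 3 h, against 2726 to 5774 CPM at 0 h. Of all tested genes, 16.9% lay below the controls in the same way at ETH 3 h and 18.5% at MJ 3 h. The log2 fold change of PSAF was -0.93 (SE 0.362) at ETH 3 h, where it was not called, and -1.13 (SE 0.363) at MJ 3 h, where edgeR called it (adjusted p = 0.0365). For rbcL the values were -0.55 (SE 0.342) and -0.55 (SE 0.342), not called, and the part of these leaf marker levels in the ERF results was not tested. LOX2, a jasmonate synthesis gene, was at 1432 to 3684 CPM at MJ 3 h, against 70.0 to 591 CPM at 0 h.

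RAP2.12 was higher in every treated library than in every control library, and the highest group was ETH 3 h. Its levels were 757, 792 and 681 CPM at ETH 3 h and 652, 579 and 613 CPM at ETH 24 h. Under MJ the levels were 398, 508 and 476 CPM at 3 h and 284, 312 and 358 CPM at 24 h, against 224, 262 and 192 CPM at 0 h. The lowest ETH 3 h library was 2.60 times the highest control library, and the lowest MJ 24 h library was only 1.09 times it. The log2 fold change over 0 h was 1.72 (SE 0.153) at ETH 3 h and 1.44 (SE 0.152) at ETH 24 h. It was 1.03 (SE 0.151) at MJ 3 h and 0.49 (SE 0.149) at MJ 24 h. By mean level ETH 3 h came first, then ETH 24 h, then the MJ groups at 3 h and at 24 h, and 0 h came last, and in this gene no neighbouring pair in that order overlapped. The closest neighbours were ETH 3 h and ETH 24 h, where the lowest ETH 3 h library was 1.04 times the highest ETH 24 h library. Among all tested genes, the share with every group apart in this way was not computed.

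ERF13 was high in a single group, the 3 libraries taken 3 h after ETH. Its levels were 333, 398 and 301 CPM at ETH 3 h and 119, 125 and 117 CPM at ETH 24 h. Under MJ the levels were 121, 166 and 77.0 CPM at 3 h and 93, 90.9 and 107 CPM at 24 h, against 90.1, 153 and 65.8 CPM at 0 h. Each ETH 3 h library stood above the other 12 libraries, the nearest of which was MJ 3 h replicate 2. The share of all tested genes with such a gap was not computed. The ranges of the other 3 treated groups overlapped that of the control. The log2 fold change over 0 h was 1.74 (SE 0.303) at ETH 3 h and 0.22 (SE 0.295) at ETH 24 h. Under MJ it was 0.24 (SE 0.295) at 3 h and -0.09 (SE 0.295) at 24 h. The SEs of the last 3 values are larger than the values, and their direction turned when 1 library was left out (ETH 24 h gave -0.039 without 0 h replicate 3, MJ 3 h gave -0.058 without MJ 3 h replicate 2, and MJ 24 h gave 0.31 without 0 h replicate 2).

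ERF15 had the largest spread of levels of the 3 genes, with its highest levels under ETH and its lowest at MJ 24 h. Its levels were 34.4, 39.9 and 22.4 CPM at ETH 3 h and 12.6, 17.5 and 19.6 CPM at ETH 24 h. Under MJ the levels were 2.13, 7.21 and 4.77 CPM at 3 h and 0.491, 1.03 and 1.17 CPM at 24 h, against 1.35, 7.90 and 0.674 CPM at 0 h. All 6 ETH libraries lay above the 9 other libraries, and both MJ groups overlapped the control. How common such a separation is over all tested genes was not computed. The log2 fold change over 0 h was 3.27 (SE 0.753) at ETH 3 h and 2.31 (SE 0.728) at ETH 24 h. Under MJ it was 0.50 (SE 0.707) at 3 h and -1.89 (SE 0.762) at 24 h. These 4 values depended on 1 control library: without 0 h replicate 2 they were 4.96, 4.0, 2.18 and -0.19 in the same order. The low MJ 24 h level therefore stands mainly against that control library, since the MJ 24 h libraries had 13, 28 and 32 counts and the other 2 controls had 34 and 15.

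**Figure D1:**
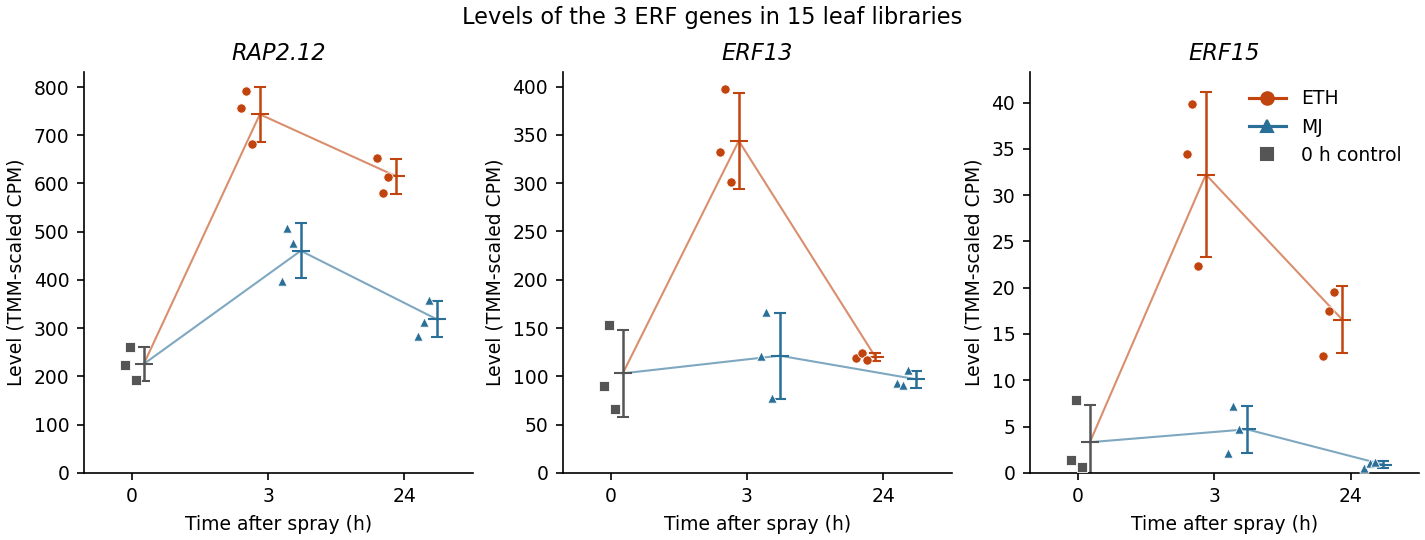
Level of RAP2.12, ERF13 and ERF15 (vertical axes, TMM-scaled CPM, each panel with its own scale) against time after the spray (horizontal axis, h, not to scale). Circles are ETH libraries, triangles MJ libraries and squares 0 h controls, short bars with whiskers are the mean ± SD of 3 libraries (the lower whisker of ERF15 at 0 h is cut at 0), and lines join the means. RAP2.12 kept 615 CPM on average at ETH 24 h, ERF13 was back at 120 CPM and ERF15 lay between, at 16.5 CPM.

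All 3 genes had their highest control value in the same library, 0 h replicate 2. It exceeded the lowest control 1.36 times in RAP2.12, 2.33 times in ERF13 and 11.7 times in ERF15. Of all tested genes, 37.4% had their highest control value in that library, and so did 6 of the 9 tested ethylene signalling genes and 27 of the 38 other transcription factor genes of the study's green and pink modules. The part of that library in the control spread of the ERF genes was not tested beyond leaving it out.

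All libraries of ETH 3 h lay above all control libraries in 3 of the 3 genes. At ETH 24 h this held for RAP2.12 and ERF15, and at MJ 3 h and MJ 24 h it held for RAP2.12. Of all tested genes, 17.8% lay above the controls in the same way at ETH 3 h, 19% at ETH 24 h, 19.6% at MJ 3 h and 10.9% at MJ 24 h. By the stricter criterion of a call, edgeR found 4.76% of all tested genes higher at ETH 3 h, 1.33% at ETH 24 h, 9.55% at MJ 3 h and 0.0167% at MJ 24 h over 0 h (fold over 1.5, with the adjusted p below 0.05). It called 7.14%, 0.855%, 11.3% and 0.0111% lower in the same 4 comparisons. The median log2 fold change of all tested genes was 0.05, -0.01, 0.05 and 0.00 in that order. Ranked by log2 fold change among the 18008 tested genes, ERF15 stood at place 123 from the top at ETH 3 h, ERF13 at 515 and RAP2.12 at 522. At ETH 24 h, RAP2.12 stood at 504, ERF15 at 191 and ERF13 at 4415. At MJ 3 h the places were 1720 for RAP2.12, 4002 for ERF15 and 6608 for ERF13. At MJ 24 h they were 1539 for RAP2.12, 10811 for ERF13 and 17882 for ERF15, which was thus near the bottom there, with a log2 fold change of -1.89 that was -0.19 without 0 h replicate 2. The same 3 control libraries serve all 4 comparisons, so these places are not independent of each other.

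Between the hormones at the same dose and time, the ETH libraries were higher than the MJ libraries in each of the 3 genes at 3 h and again at 24 h, with no overlap. At 3 h the log2 difference of ETH over MJ was 2.77 (SE 0.735) for ERF15, 1.5 (SE 0.301) for ERF13 and 0.69 (SE 0.15) for RAP2.12. At 24 h it was 4.20 (SE 0.807) for ERF15, 0.95 (SE 0.15) for RAP2.12 and 0.31 (SE 0.295) for ERF13. The gap at 24 h was widest in ERF15, whose lowest ETH 24 h library was 10.8 times its highest MJ 24 h library, and narrowest in ERF13, at 1.09 times. Of all tested genes, 9.85% lay above without overlap at ETH 3 h over MJ 3 h and 15% at ETH 24 h over MJ 24 h. Over the same genes, edgeR called 3.33% higher and 3.57% lower at ETH 3 h over MJ 3 h, and 0.6% higher and 0.439% lower at ETH 24 h over MJ 24 h. These differences do not use the control levels, but their SEs and the calls come from a fit that includes the control libraries. Without ETH 3 h replicate 1 and MJ 3 h replicate 1, which carried more transcripts of young tissue, the differences at 3 h were 2.37 for ERF15, 1.52 for ERF13 and 0.57 for RAP2.12.

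**Figure D2:**
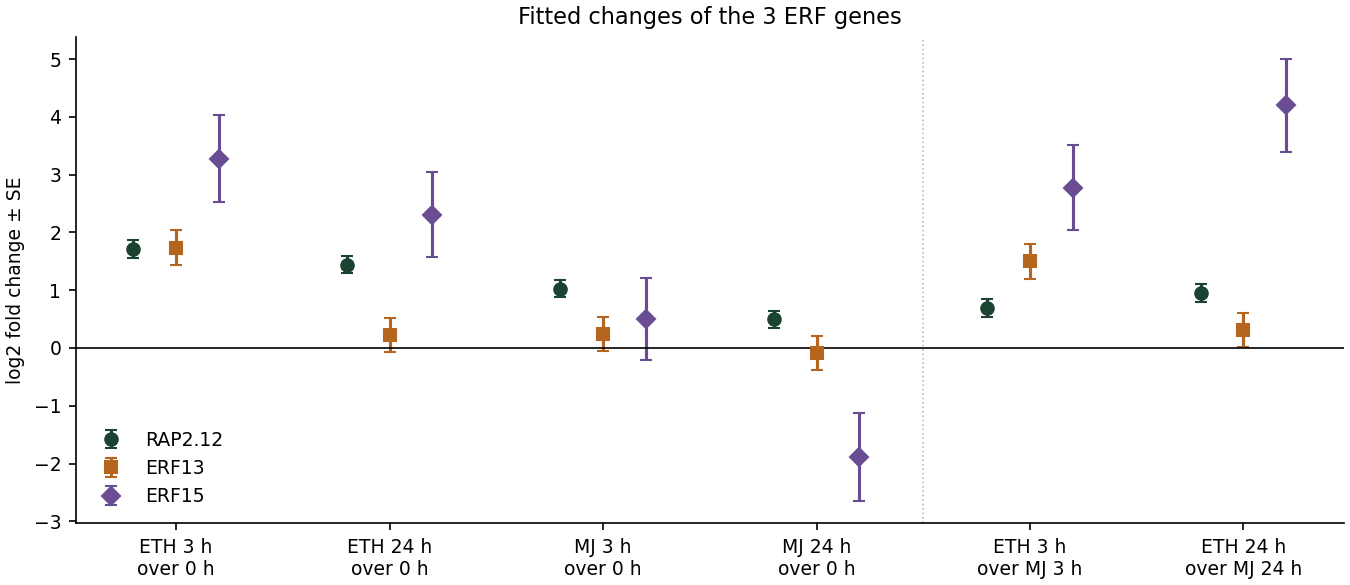
Log2 fold change ± SE (vertical axis) of RAP2.12 (circles), ERF13 (squares) and ERF15 (diamonds) in 6 comparisons (horizontal axis), fitted over 15 libraries. The 4 comparisons with the 0 h control stand left of the dotted line and the 2 comparisons of ETH over MJ right of it. RAP2.12 had short error bars throughout (SE 0.149 to 0.153), ERF15 long ones (SE 0.707 to 0.807), and ERF13 stood apart from 0 at ETH 3 h (1.74) and at ETH 3 h over MJ 3 h (1.5).

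The genes also differed in how much of the ETH 3 h level was left at 24 h. At ETH 24 h, RAP2.12 retained 75.2% of its rise in mean CPM above the control, ERF15 45.8% and ERF13 7.14%. Leaving out any 1 library moved these shares within 70.9 to 78.9% for RAP2.12, 39.1 to 52.7% for ERF15 and -0.64 to 15.9% for ERF13, so the order of the 3 genes was the same each time. The direct log2 change of ETH 24 h over ETH 3 h was -1.52 (SE 0.301) for ERF13, -0.96 (SE 0.690) for ERF15 and -0.27 (SE 0.149) for RAP2.12. In each gene the 3 ETH 24 h libraries lay below the 3 ETH 3 h libraries, as they did in 16.1% of all tested genes. Under MJ the change of 24 h over 3 h was -2.38 (SE 0.766) for ERF15, -0.53 (SE 0.149) for RAP2.12 and -0.32 (SE 0.295) for ERF13, with overlap in ERF13 alone, and 16.3% of all tested genes lay below without overlap. The 24 h change under ETH minus that under MJ was -1.19 (SE 0.418) for ERF13, 1.42 (SE 1.01) for ERF15 and 0.26 (SE 0.211) for RAP2.12.

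The response to MJ at 3 h was likewise unequal. The mean of RAP2.12 exceeded the control by 45.3% of its excess at ETH 3 h (40.8 to 51.4% with 1 library left out). The same share was 7.61% in ERF13 (-1.70 to 16.8%) and 4.83% in ERF15 (0.285 to 11.8%). These shares are on linear CPM. On the log2 scale without 0 h replicate 2, MJ 3 h over 0 h was 2.18 for ERF15, 1.13 for RAP2.12 and 0.62 for ERF13. The order of the genes in their MJ response thus depended on the scale and on that control library.

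Ratios of the genes within a library do not depend on how libraries are scaled. How often the ratios of other gene pairs separate between groups without overlap was not computed. The log2 ratio of RAP2.12 to ERF13 counts was 2.45, 2.22 and 2.39 at ETH 24 h, against 1.19, 0.99 and 1.18 at ETH 3 h. No library of the one group came near the other, and the ratio was higher at 24 h by 1.23 (SE 0.0944) on the log2 scale. Between ETH 3 h and 0 h the same ratio differed by -0.09 (SE 0.238), with overlapping libraries, so both genes stood higher at ETH 3 h by nearly the same factor.

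ERF15 stood higher relative to ERF13 in both ETH groups than at 0 h, and higher relative to RAP2.12 at ETH 3 h. The log2 ratio of ERF13 to ERF15 was 3.27, 3.32 and 3.75 at ETH 3 h and 3.25, 2.83 and 2.58 at ETH 24 h, against 6.06, 4.28 and 6.61 at 0 h. It was lower in each ETH library than in each control, by 2.2 (SE 0.720) at 3 h and by 2.76 (SE 0.730) at 24 h on the log2 scale. The ratio of RAP2.12 to ERF15 was likewise lower at ETH 3 h than at 0 h, by 2.29 (SE 0.951), and 0 h replicate 2 was the control nearest to ETH in both ratios. Its difference of ETH 24 h over 0 h was -1.62 (SE 0.961), with overlapping libraries. Between the ETH times this ratio was higher at 24 h than at 3 h, by 0.67 (SE 0.296) without overlap, so ERF15 had lost ground to RAP2.12 by then. At ETH 24 h over MJ 24 h, the RAP2.12 to ERF15 ratio differed by -3.32 (SE 0.385) and the ERF13 to ERF15 ratio by -3.96 (SE 0.408), with no overlap in either. For these ratios, too, the share of other gene pairs with such a separation was not computed.

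**Figure D3:**
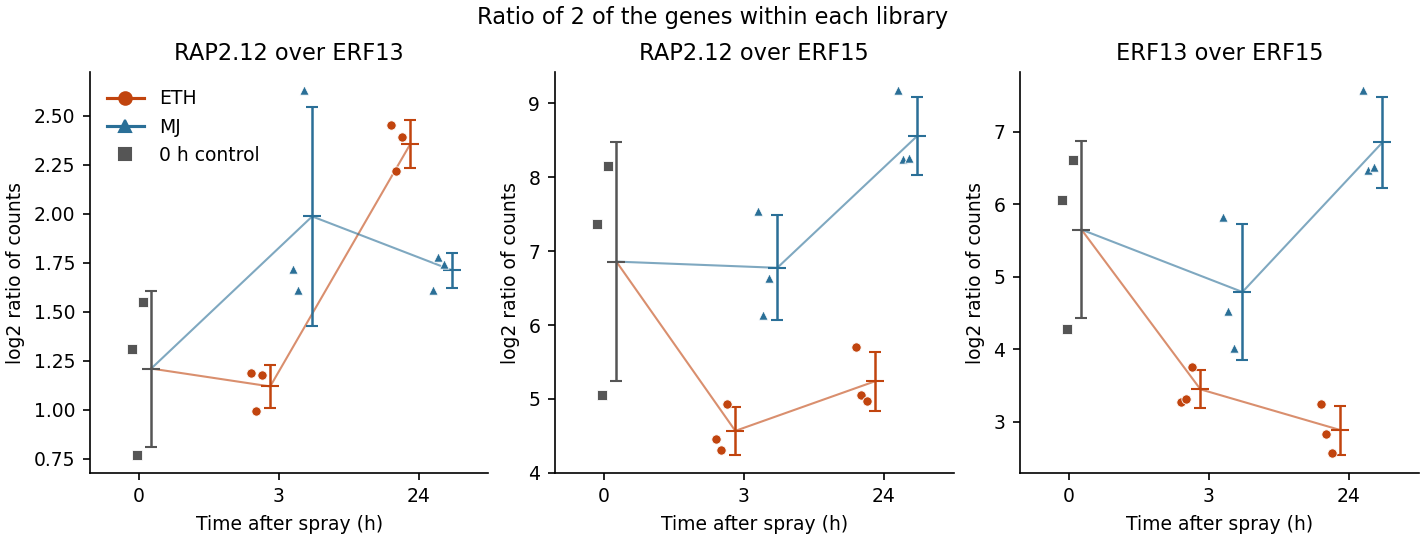
Log2 ratio of the counts of 2 genes within each library (vertical axes, each panel with its own scale that does not start at 0) against time after the spray (horizontal axis, h, not to scale), with symbols, bars (mean ± SD, n = 3) and lines for ETH, MJ and the 0 h control. RAP2.12 over ERF13 averaged 2.35 at ETH 24 h and 1.12 at ETH 3 h, and both ratios to ERF15 stood below their MJ values in the ETH libraries of either time.

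Of the 9 tested ethylene signalling genes, edgeR called 4 higher than 0 h at ETH 3 h and the same 4 at ETH 24 h, and none was called lower. Most of the genes in this list were also chosen by the study on these libraries, so their direction is not independent evidence. At ETH 3 h the median log2 fold change of the 9 genes was 0.44, against 0.05 over all tested genes, of which 11.9% were called in either direction. At ETH 24 h the median was 0.46, against -0.01 over all genes, of which 2.18% were called.

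EBF2 (CRO_005880), the F-box protein that marks EIN3 for degradation, changed most. Its levels were 3929, 4111 and 4130 CPM at ETH 3 h and 3975, 4209 and 4397 CPM at ETH 24 h, against 381, 434 and 270 CPM at 0 h. At ETH 3 h it rose by 3.49 on the log2 scale (SE 0.353), with an adjusted p of 2.98e-04 in edgeR. At ETH 24 h it rose by 3.54 (SE 0.353), with an adjusted p of 6.25e-04. EBF2 did not stand lower at ETH 24 h than at ETH 3 h (log2 change 0.05, SE 0.320), with overlapping libraries.

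MKK9 (CRO_011505), a MAP kinase kinase linked to ethylene signalling in Arabidopsis, was at 426, 446 and 436 CPM at ETH 3 h and 340, 383 and 394 CPM at ETH 24 h, against 112, 135 and 88.4 CPM at 0 h. Its log2 rise was 1.97 (SE 0.211) at ETH 3 h, where edgeR gave an adjusted p of 3.33e-04, and 1.74 (SE 0.210) at ETH 24 h, where it gave 0.00197. The receptor gene EIN4 (CRO_020097) was higher by 1.16 at ETH 3 h and by 1.2 at ETH 24 h (SE 0.170 for both), with adjusted p-values of 0.00191 and 0.00488 in that order. For CTR1 (CRO_000074) the increases were 0.74 and 0.69 (SE 0.114 for both), with adjusted p-values of 0.00246 and 0.0112. These 8 calls held under each alternative run other than the fold threshold of 2, which CTR1 did not reach. Like the 3 ERF genes, MKK9 lay lower at ETH 24 h than at ETH 3 h without overlap, as did 16.1% of all tested genes. In EIN4 and CTR1, as in EBF2, the libraries of both ETH times overlapped.

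The remaining tested genes of the pathway did not pass. EIN3 (CRO_017077) reached 0.44 at ETH 3 h on the log2 scale (SE 0.138), below the threshold of 1.5-fold, although its adjusted p was 0.0492 in edgeR. The receptor gene ETR1 was at 0.31 (SE 0.106), the 2 EIN2 genes were at 0.15 (CRO_006809) and 0.09 (CRO_030101), and EER4, an ethylene response modifier, was at -0.04. EIL1 (CRO_031898) had at most 7 counts in a library and was not tested.

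Under MJ, edgeR called none of the 9 genes at 3 h or at 24 h, although 3 at 3 h and 4 at 24 h had an unadjusted p under 0.05. At MJ 3 h DESeq2 called EBF2 and limma voom called MKK9, and at MJ 24 h both called EBF2. EBF2 was at 474 to 884 CPM at MJ 3 h and 759 to 1679 CPM at MJ 24 h. Each of these libraries lay above the controls (270 to 434 CPM), as in 19.6% and 10.9% of all tested genes. MKK9 was also called at MJ 3 h by edgeR without 0 h replicate 2, or without MJ 3 h replicate 1. At MJ 3 h edgeR called 20.8% of all tested genes, and at MJ 24 h 0.0278%. Between the hormones, EIN4, EBF2 and MKK9 were higher at ETH 3 h than at MJ 3 h (log2 differences 1.29, 2.73 and 1.38, adjusted p = 7.32e-04, 4.94e-04 and 0.00170 in edgeR), where 6.89% of all genes were called. With the ETH 3 h and MJ 3 h libraries alone in the fit, EBF2 was called and EIN4 and MKK9 were not. The same 3 genes were called at ETH 24 h over MJ 24 h, where 1.04% of all genes were called, but none of them was without any 1 of ETH 24 h replicates 1, 2 and 3 and MJ 24 h replicates 1 and 2.

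**Figure D4:**
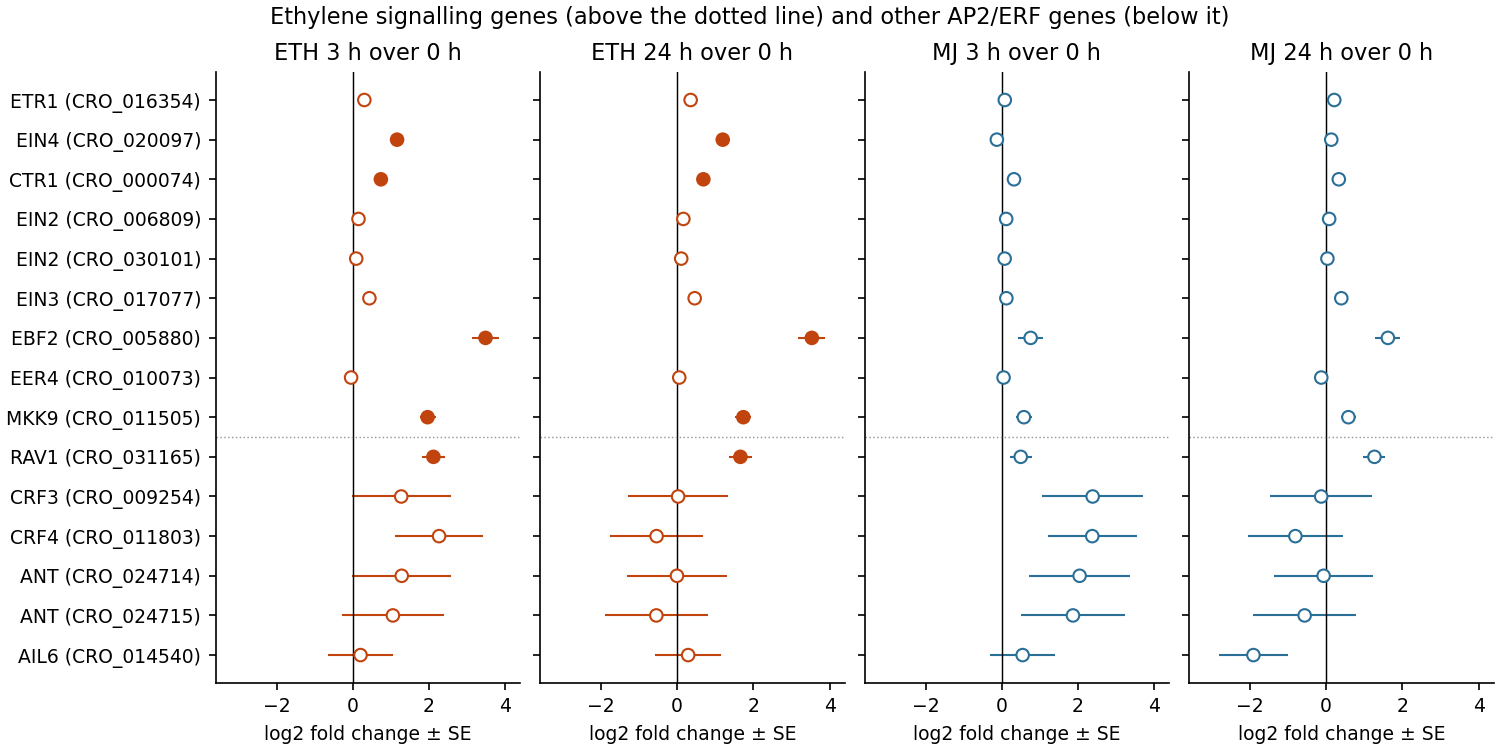
Log2 fold change ± SE (horizontal axes) over the 0 h control of 9 ethylene signalling genes and 6 other AP2/ERF genes (rows, with gene IDs), in 1 panel for each hormone and time. Filled circles are genes that edgeR called (fold over 1.5, adjusted p below 0.05), and open circles are not called. EBF2, MKK9, EIN4, CTR1 and RAV1 are filled in both ETH panels, and no circle is filled in the MJ panels.

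Of 7 other genes annotated as AP2 or ERF proteins, 6 were tested. The 7 are those with such an annotation in the sources used here, so they do not stand for the whole family. Over 0 h, 1 of the 6 was called at ETH 3 h and at ETH 24 h. Of all tested genes, 11.9% and 2.18% were called there. RAV1 (CRO_031165), which carries an AP2 and a B3 domain in Arabidopsis, was at 657, 736 and 694 CPM at ETH 3 h and 529, 502 and 488 CPM at ETH 24 h, against 177, 198 and 105 CPM at 0 h. On the log2 scale it rose by 2.1 (SE 0.296) at ETH 3 h, where edgeR gave an adjusted p of 0.00155, and by 1.66 (SE 0.292) at ETH 24 h, where the adjusted p was 0.0153. At 24 h it no longer passed once ETH 24 h replicate 1 or 0 h replicate 1 was left out. RAV1 was also higher at ETH 3 h than at MJ 3 h (1.62, SE 0.292, adjusted p = 0.00498), a call lost with those 2 groups alone in the fit, and at ETH 24 h over MJ 24 h its libraries overlapped (0.39, adjusted p = 0.589).

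The cytokinin response factor genes CRF3 and CRF4 and the ANT (2 IDs) and AIL6 genes, which act in growing organs, had log2 fold changes between 0.21 and 2.27 at ETH 3 h with SEs of 0.859 to 1.33 and were not called. Their libraries overlapped the controls, and ETH 3 h replicate 1, the library high in young tissue transcripts, was the highest of its group in each of these 5 IDs. ANT (CRO_024714), for example, was at 11.8, 0.981 and 0.399 CPM at ETH 3 h, against 2.58, 1.34 and 1.48 CPM at 0 h, so the other 2 libraries of that group lay below the controls. Both ANT genes and AIL6 are also in the sum of young tissue genes given next. A DREB-type gene (CRO_000134) had too few counts to be tested. Over 0 h, edgeR called 0 of the 6 at MJ 3 h and at MJ 24 h, where 0 and 1 had an unadjusted p under 0.05. DESeq2 and limma voom called 0 at MJ 3 h and RAV1 at MJ 24 h. RAV1 was at 301 to 499 CPM at MJ 24 h, above each control (105 to 198 CPM), as were 10.9% of all tested genes. The list median was 1.28 at ETH 3 h, 0.01 at ETH 24 h, 1.96 at MJ 3 h and -0.35 at MJ 24 h. At MJ 3 h, too, replicate 1 was the highest of its group in the CRF3, CRF4, ANT and AIL6 genes.

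Transcripts of young or dividing tissue were high in replicate 1 of both 3 h groups. The summed level of 9 such genes was 347 CPM in ETH 3 h replicate 1 and 429 CPM in MJ 3 h replicate 1, and 79.3 to 140 CPM in the other 13 libraries. None of the 3 ERF genes had its highest level at ETH 3 h or MJ 3 h in replicate 1. With both libraries left out, the log2 fold changes at ETH 3 h over 0 h were 1.68 for RAP2.12, 1.74 for ERF13 and 3.2 for ERF15. In a whole leaf, more cells that express a gene and more transcript per cell cannot be told apart.

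Across the 15 libraries, the levels of RAP2.12 and ERF15 ran closest together among the 3 genes, with Pearson's r of 0.873 on log2(CPM + 1), followed by ERF13 and ERF15 at 0.804 and RAP2.12 and ERF13 at 0.719. These are descriptions over libraries that share their treatment in sets of 3. After each group's mean was taken out, the deviations of the same pairs had r of 0.821, 0.714 and 0.601 over the 15 libraries. Library 0 h replicate 2 was the highest control for all 3 genes, and without it the r of the levels was 0.934, 0.803 and 0.776 in the same order. The deviations were not compared without it, so how far their r rests on that library is not known.

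Among all 18007 other tested genes, the 2 most alike to RAP2.12 were CRO_028519 (r = 0.982) and CRO_013624 (0.977), those to ERF13 were CRO_030942 (0.951) and CRO_008067 (0.946), and those to ERF15 were CRO_001303 (0.946) and CRO_020050 (0.944), none of which carries a name in the tables. Names were at hand for 312 genes, many of them taken from the study's network, so a named gene was likelier to be a network gene. The named genes most like RAP2.12 were HB-1 (CRO_026277, a homeobox factor, r = 0.943 at place 13), a bHLH gene (CRO_004901, 0.935), MKK9 (0.931), HLL (CRO_000814, 0.917) and CTR1 (0.899). Those most like ERF13 were TS (CRO_011212, tabersonine synthase of the alkaloid pathway, r = 0.911 at place 14), a second bHLH gene (CRO_017976, 0.841), ERF15, the bHLH gene CRO_004901 (0.802) and WRKY7 (CRO_007332, 0.799). Those most like ERF15 were MKK9 (r = 0.890 at place 18), RAP2.12, the bHLH gene CRO_004901 (0.872), HB-1 (0.859) and WRKY53 (CRO_006222, 0.851). The bHLH gene CRO_004901 was thus among the 5 named genes most like each of the 3 ERF genes.

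GO, CS and PRX1, the other alkaloid enzymes that the study names in its green and pink modules, stood further down the ranking of ERF13 than TS. With RAP2.12 and ERF15, GO stood above TS, while CS and PRX1 stood below it. For GO, geissoschizine oxidase, r was 0.754 with RAP2.12, 0.557 with ERF13 and 0.791 with ERF15. For CS, catharanthine synthase, r was 0.661, 0.641 and 0.725 with the same 3 genes, and for PRX1, the peroxidase that couples catharanthine and vindoline, it was 0.695, 0.525 and 0.660. CS had only 2 to 38 counts per library, against 8730 to 65356 for TS, so its r rests on few reads. The part of these low counts in its place below TS was not tested. TS, at 0.911 with ERF13, had 0.715 with RAP2.12 and 0.753 with ERF15. The study linked these enzymes and the ERF genes on these libraries, so the values describe that choice.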

How the data were processed

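Leaf RNA was sequenced as paired-end reads from a stranded mRNA kit. After trimming adaptors and poor reads, the authors ran HISAT2 (its version, 2.0.4, comes from the submitters' processing notes) and HTSeq, and the deposited values are raw counts per gene. Of the strand setting, and of which of 2 genome sources served, nothing is given in the sources used here. Reads of related ERF genes or antisense transcripts may therefore be shared. The extraction text of the labels names an animal tissue and was taken as left over from another study.

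Groups came from the labels. The fit used edgeR 4.0.16 under R 4.3.3 (filterByExpr, TMM, quasi-likelihood fit of 5 group means on 15 libraries, no replicate term), and 18008 of 33829 genes (53.2%) were tested. Genes were called at a Benjamini-Hochberg adjusted p under 0.05 over all tested genes and a fold above 1.5 or below 0.667. The SE is the log2 fold change over the square root of F. No 2 libraries were identical. The script was tested on simulated data.

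The 3 genes and the gene lists were chosen with earlier results of these data known. Named are the 3 genes, all members of the ethylene signalling and AP2/ERF lists, and per gene the 5 most alike named genes and 2 most alike IDs. Names came from the study's tables. Sequences are not shown because 0 of 3 IDs matched the RefSeq gene table.

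Alternatives were library totals, upper-quartile and DESeq2 size factors, DESeq2 1.42.0, limma 3.58.1 voom with quality weights, no filter, at least 10 counts in every library, other fold thresholds, only the compared groups, a replicate block, leaving out each library and, added after seeing the data, leaving out 2 libraries together. Ratios were also run with 0.5 added to each count, and likeness on linear CPM, with a pseudocount of 0.25 and as Spearman's rho. Figures were drawn with matplotlib 3.10.9 in Python 3.11.15.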

Additional observations from a re-analysis of the deposited data

Results flagged for a closer look

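ERF15 at 24 h lay above the mean of the 0 h libraries in all 3 ETH libraries and below it in all 3 MJ libraries. The levels were 12.6, 17.5 and 19.6 CPM at ETH 24 h and 0.491, 1.03 and 1.17 CPM at MJ 24 h, and the control mean was 3.31 CPM. The log2 difference of ETH 24 h over MJ 24 h was 4.20, and it was not tested because ERF15 was chosen on these libraries. The control mean rests on 0 h replicate 2, and without that library it was 1.01 CPM, with MJ 24 h values on both sides of it.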

How the results depend on the processing

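Outside the leave-one-out fits, 257 of 261 alternative log2 fold changes of the 3 ERF genes stayed within 1 SD of the reported value. The exceptions were ERF15 in limma voom, at 4.20 for ETH 3 h, 3.34 for ETH 24 h, 1.47 for MJ 3 h and -0.90 for MJ 24 h over 0 h. With 1 library left out, 172 of 180 stayed within it, and the other 8, of ERF13 and ERF15 over 0 h, all arose without 0 h replicate 2. For ERF13 the leave-one-out values ran from 1.49 to 2.1 at ETH 3 h, -0.039 to 0.61 at ETH 24 h, -0.058 to 0.62 at MJ 3 h and -0.33 to 0.31 at MJ 24 h. For ERF15 they ran from 2.79 to 4.96, 1.81 to 4.0, 0.0073 to 2.18 and -2.36 to -0.19 in the same order. The ratio of RAP2.12 to ERF13 at ETH 3 h over MJ 3 h ran from -1.05 to -0.55, and that of RAP2.12 to ERF15 at ETH 3 h over 0 h from -3.20 to -1.64. For ERF13, r was 0.897 with ERF15 on linear CPM, and Spearman's rho with TS was 0.950.

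Among ethylene signalling genes called at MJ 3 h over 0 h, the count was 1 in DESeq2, limma voom and without the 2 libraries high in young tissue transcripts, and 0 to 1 with 1 library left out. At MJ 24 h over 0 h it was 1 in DESeq2 and limma voom, as for the other AP2/ERF genes. At ETH 3 h over MJ 3 h it was 1 with only the compared groups fitted (0 other AP2/ERF genes), and at ETH 24 h over MJ 24 h it was 0 to 3 with 1 library left out. Other AP2/ERF calls at ETH 24 h over 0 h were 0 to 1 with 1 library left out, and at ETH 24 h over MJ 24 h AIL6 was called (1 gene) with only the compared groups and in limma voom.

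Over the whole table the calls were 2144 at ETH 3 h, 393 at ETH 24 h, 3750 at MJ 3 h and 5 at MJ 24 h over 0 h, 1241 at ETH 3 h over MJ 3 h and 187 at ETH 24 h over MJ 24 h. With only the compared groups they were 1110, 1175, 2025, 1, 175 and 552. DESeq2 gave 1129 at ETH 24 h, 244 at MJ 24 h and 803 at ETH 24 h over MJ 24 h. limma voom gave 3975 at ETH 3 h, 2765 at ETH 24 h, 912 at MJ 24 h and 1654 at ETH 24 h over MJ 24 h. Library totals gave 16 at MJ 24 h, and a fold above 2 gave 1113 at ETH 3 h and 2040 at MJ 3 h. With 1 library left out the counts ran from 1008 to 2431, 83 to 182, 2749 to 4124, 0 to 8, 789 to 1441 and 20 to 198 in the order first given. The cause of these differences was not tested.

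The fit did not pair libraries by replicate number. Over 30 same-numbered pairs the correlation of deviations from the group means ran from -0.66 to 0.765, with 15 over 0.1. Differently numbered pairs were not compared, so these values cannot tell whether same-numbered libraries belong together. The replicate block gave 259 calls at ETH 24 h and 0 at MJ 24 h over 0 h and 118 at ETH 24 h over MJ 24 h, and left the direction of each ERF log2 fold change as reported.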
